A study of Mus musculus with 8 samples.

Results

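The nuclei described here met a marker rule for the thin descending limb of the mouse kidney. They were 602 of the 81391 nuclei that passed quality control in a single-nucleus RNA-seq study of 8 kidney libraries. A nucleus was a member when at least 2 of the 5 marker genes Fst, Corin, Slc4a11, Bst1 and Sptssb had at least 1 UMI (unique molecular identifier, a count of 1 captured transcript), Slc12a1 had at most 1 UMI, and Aqp2 and Flt1 had none. The members were therefore chosen by measured values, so that the levels of these 8 genes and the ratios of members to all other nuclei are given as a description without a test. Tests against 3 classes of nuclei, given at the end, leave out the genes by which any class was chosen.

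The study asked how transcripts of renal cell types depend on time of day and on the tubular circadian clock, with 1 library per male C57BL/6J mouse and 2 mice in each of 4 groups. Control mice (Ctrl) carried the floxed Bmal1 allele (Bmal1 lox/lox), and the clock-deficient mice (cKOt) had 2 further transgenes, Pax8-rtTA and LC-1. The first gives the doxycycline-dependent activator in renal tubule cells and the second the Cre recombinase that it switches on, so that the gene encoding BMAL1 was removed in tubules and not in the whole kidney or body. Per the labels, mice of both genotypes drank doxycycline at 2 mg/ml with sucrose at 20 mg/ml for 2 weeks, starting at 8 weeks of age, and were kept on a light-dark cycle. Kidneys were taken at ZT4, 4 h into the light phase, or at ZT16, in the dark phase when mice are active.

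The thin descending limb links the straight part of the proximal tubule to the thin ascending limb and dips into the hypertonic medulla. Water leaves it along the osmotic gradient, so that its fluid is concentrated before it enters the ascending limbs, which reabsorb salt without water. Segments of short and long loops differ: cells of long loops carry the water channel aquaporin 1 (Aqp1), whereas the descending limb of short loops carries a urea transporter encoded by Slc14a2. Among the markers, Slc4a11 encodes a membrane transporter of protons and water related to the bicarbonate transporters, Bst1 an NAD-metabolising ectoenzyme, Fst the activin-binding protein follistatin, Corin the protease that activates atrial natriuretic peptide, and Sptssb a small subunit of serine palmitoyltransferase, the first enzyme of sphingolipid synthesis.

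The libraries held 8919 to 11083 barcodes each, of which 8758 to 10975 passed quality control (a minimum of 500 genes and of 800 UMIs, with no more than 2% of UMIs mitochondrial), with 36548873 to 54500820 UMIs per library. Between 18 and 42 of the passing barcodes were shared by any pair of libraries, and no barcode of a member was shared. No doublet caller was run here, and the study's methods describe a sort on DAPI to exclude doublets and clumps. The replicates of each group differed by more than sampling noise, with chi-square values of 1.99 to 2.2 per degree of freedom over 6985 to 8482 genes, so that no library was counted as a copy of another.

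Members were 64 and 97 nuclei in the Ctrl ZT4 libraries, 99 and 79 in Ctrl ZT16, 56 and 97 in cKOt ZT4, and 51 and 59 in cKOt ZT16. Their share of the passing nuclei ran from 0.538% (95% Wilson interval 0.417 to 0.693%) in cKOt ZT16 replicate 2 to 0.973% (0.798 to 1.185%) in Ctrl ZT4 replicate 2, where intervals cover counting error only. The mean share was 0.821% ± 0.155 (SD, n = 4) in Ctrl and 0.657% ± 0.208 (SD, n = 4) in cKOt, and the ranges of the genotypes overlapped. The difference of −0.164 percentage points had p = 0.2 in a two-sided exact permutation test, whose smallest possible p is 0.0286. The share was 0.782% ± 0.222 (n = 4) at ZT4 and 0.696% ± 0.177 (n = 4) at ZT16, a difference of −0.0854 points with an exact permutation p of 0.571.

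A share of nuclei with a UMI depends on depth. After every nucleus was thinned to 1000 UMIs, which kept 8720 to 10825 nuclei per library, the member share was 0.347% ± 0.0692 in Ctrl and 0.202% ± 0.0706 in cKOt. That difference of −0.145 points had the smallest p the exact permutation test can give (0.0286, n = 4 libraries against 4). The gap between the genotypes was narrow: 27 of 9598 nuclei (0.281%) in Ctrl ZT4 replicate 1 and 27 of 9919 (0.272%) in cKOt ZT4 replicate 2. Thinning was 1 random draw, and another draw could make the genotypes overlap. The difference between times turned to 0.0573 points in favour of ZT16 (exact permutation p = 0.486). Without thinning, the difference between genotypes was −0.0446 points under a stricter limit on other cell types' markers (exact permutation p = 0.286), −0.0771 points with at least 3 markers (exact permutation p = 0.0857), −0.0725 points with at least 1 marker (exact permutation p = 0.886) and −0.0514 points with Slc12a1 at 0 UMIs (exact permutation p = 0.571). It was thus called under thinning and in none of these settings.

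**Figure D1:**
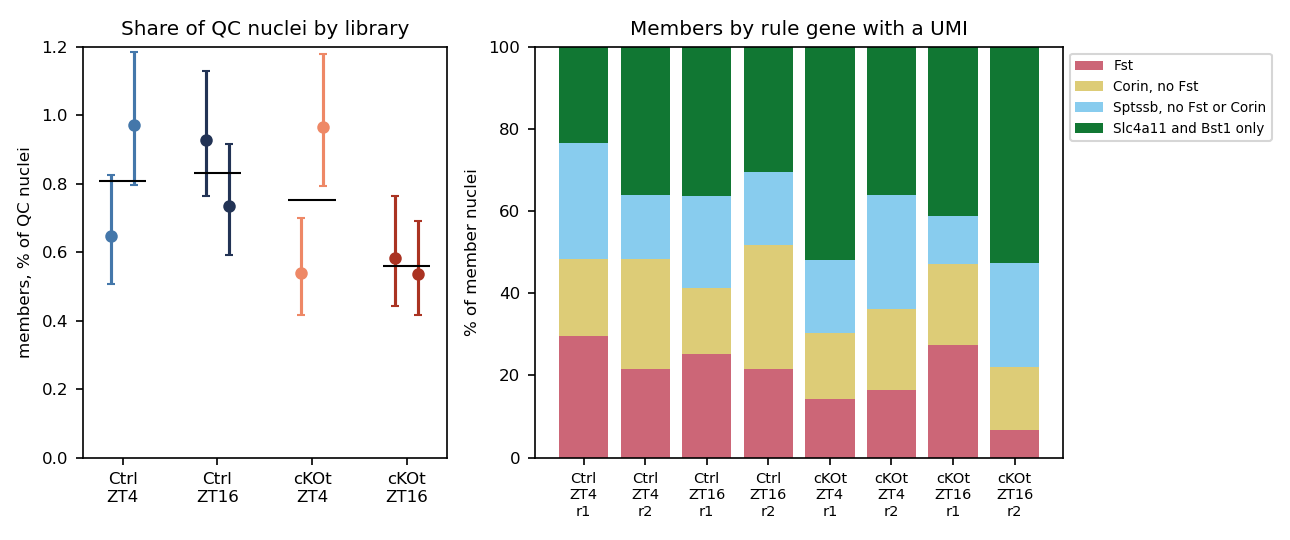
Left, percent of passing nuclei that were members in each of the 8 libraries, with 95% Wilson intervals as bars and group means as lines; right, percent of each library's members in the 4 groups defined by which marker was found. The shares lie between 0.538% and 0.973% and overlap between genotypes, and members with Slc4a11 and Bst1 alone make up 23.4% to 36.4% of members in Ctrl and 36.1% to 52.5% in cKOt.

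The members' summed nuclei gave 250916 to 456254 UMIs per library, of which 198950 to 370911 belonged to mRNAs and 40991 to 92387 to lncRNAs. The median member held 3882.5 UMIs, and the other nuclei 3681. The threshold was close for most members: 531 had exactly 2 of the 5 markers and 71 had 3 or more, while 3301 nuclei with exactly 1 marker fell outside. Aqp1 was not used by the rule. It was found in 55.6% of the members with 2 markers and in 78.9% of those with 3 or more. It was found in 22.2% of the nuclei with 1 marker and in 15.7% of all passing nuclei. Its level per 1000000 UMIs was lower in members with 3 or more markers (654) than in those with 2 (880). It was 204 in the nuclei with 1 marker. Epha7 stood at 331, 573 and 235 in the same order. The members with 3 or more markers were also deeper, with a mean of 4974 UMIs against 4357 in those with 2. On the exclusion side, Aqp1 was found in 61.0% of the 259 members with 1 UMI of Slc12a1, and in 71.1% of the 152 nuclei left out because they had 2.

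Slc4a11 had a UMI in 73.8% of members and Bst1 in 71.6%, against 24.3% for Sptssb, 21.8% for Corin and 20.6% for Fst. The most frequent combination was Slc4a11 with Bst1 (226 members), followed by Corin with Bst1 (84), Slc4a11 with Sptssb (76), Fst with Slc4a11 (51) and all 3 of Fst, Slc4a11 and Bst1 (51). Slc4a11 and Bst1 were thus each found in most members, and each of the other 3 markers in a minority. Sptssb was found more often in thin ascending limb-like nuclei (62.3%) than in members.

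Of the 8 other genes listed as thin descending limb markers, 7 had a higher level in members than in the other nuclei in at least 7 of 8 libraries. Levels are given as CPM, the UMIs of a gene per 1000000 mRNA UMIs of the summed nuclei. Aqp1 stood at 495 to 1492 CPM over the libraries' members (median 1172), against 65.2 to 108 CPM in the other nuclei, a pooled ratio of 13.6. It had a UMI in 58.3% of members and in 9.68% of thick ascending limb-like nuclei, which lack this water channel, at median depths of 3882.5 and 4082.5 UMIs. Cryab, a small heat shock protein abundant in the inner medulla, had 297 to 490 CPM in members (ratio 5.48), the ephrin receptor gene Epha7 345 to 854 CPM (ratio 13.3), the cadherin gene Cdh13 276 to 1241 CPM (55.8 to 92.7 CPM in the other nuclei), and the Notch ligand gene Jag1 64.6 to 396 CPM (ratio 4.74). Slc14a2 had a ratio of 2.75 and was higher in members in 7 of 8 libraries, since the other nuclei reached 1201 CPM in 1 library. Slc9a3, the gene of the sodium-proton exchanger NHE3, was an exception: its ratio was 1.07 and it was higher in members in 3 of 8 libraries. Thin ascending limb-like nuclei had more Lypd2 (68.5 against 40.8 CPM) and Cryab (428 against 395 CPM) than members, pooled over libraries. Epha7 stood at 283 CPM there and was found in 41.0% of those nuclei. Aqp1, Slc14a2, Slc9a3, Epha7, Jag1 and Cdh13 were lower there than in members.

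Ranked by their ratio among the 3255 mRNAs found in at least 20% of members, 332 stood at least 2-fold and 56 at least 5-fold above the other nuclei. Sorcs3, a sortilin-family receptor gene, led with 641 to 1468 CPM in the libraries' members against 19.3 to 81.5 CPM in the other nuclei (ratio 19.2, found in 55.1% of members). It was followed by the receptor gene Gprc5a (18.8), the glutamate transporter gene Slc1a2 (17.2), the lipid phosphatase gene Plpp4 (16.4), Fam78b (15.5), the kinase gene Stk32a (14.6) and Parm1 (14.3). Angpt2, which encodes the angiopoietin that modulates the Tie2 receptor of endothelium, stood 13.3-fold higher, the cadherin gene Cdh6 11.1-fold, the spectrin gene Sptb 10.8-fold and Proser2 10.1-fold. Thin ascending limb-like nuclei had more Proser2 (710 CPM, found in 73.6%) than members (327 CPM, 54.7%), and their Plpp4 stood at 165 CPM, against 167 CPM. All 15 of the leading mRNAs, Aqp1, Epha7 and Cdh13 included, were higher in members in 8 of 8 libraries. They were chosen by their ratio pooled over these same libraries, so that this count is a description and no test.

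Among 395 lncRNAs found in at least 5% of members, 63 stood at least 2-fold and 12 at least 5-fold above the other nuclei, on a scale per 1000000 lncRNA UMIs. The leading pair was 4932435O22Rik (99.3 against 1.42 CPM, ratio 70.1) and 4930407G08Rik (174 against 3.75 CPM, ratio 46.5), which were found in 5.15% and 10.5% of members. Platr22 (ratio 9.87) and D030045P18Rik (ratio 9.67) were found in 43.2% and 44.4% of members, with 768 to 1748 CPM and 699 to 1725 CPM over the libraries. Thin ascending limb-like nuclei had 1083 CPM of Platr22 (found in 57.4%) and 929 CPM of D030045P18Rik (48.3%), against 1124 and 1141 CPM in members. Gm20647 (ratio 17.4), Gm44939 (14.8), G930009F23Rik (11.7) and B230208H11Rik (9.26) were each found in under 6% of members. Malat1 alone took 790689 to 867376 of every 1000000 lncRNA UMIs in members, so the lncRNA scale rests on the small remainder.

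The members were not uniform, and groups formed after the values were seen, by which marker had been found, differed in genes the rule did not use. They are described without a test. The 124 members with Fst held most of the Rbfox1 signal, a gene of an RNA splicing factor, with 7567 CPM and a UMI in 79.8% of nuclei against 348 CPM in the other members. In the same nuclei Cdh13 had 2883 CPM (found in 91.9%), Stk32a 1115 CPM (78.2%), Slc9a3 761 CPM (75.8%, against 70.1 CPM in the other members), the chemokine scavenger receptor gene Ackr3 336 CPM (58.9%), and the membrane carbonic anhydrase gene Car14 153 CPM (32.3%). Aqp1 was found in 87.9% of them, whereas Sorcs3 was found in 3.23%.

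The 125 members with Corin and no Fst stood out by Slc14a2, with 4241 CPM (2430 to 7984 over libraries, found in 63.2%) against 131 CPM in the other members, and were low in Aqp1, with 102 CPM (found in 13.6%). Slit3, a guidance ligand gene, had 1608 CPM (71.2%) against 34.6 CPM in the other members, the serotonin receptor gene Htr4 1335 CPM (62.4%) against 34.0, and the calcium channel subunit gene Cacnb2 837 CPM (60.8%) against 46.9. Angpt2 (1328 CPM, 67.2%) and Jag1 (572 CPM, 67.2%) were also at their highest there. The highest Slc14a2 level and the highest Aqp1 level thus fell in different groups of members.

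The 226 members with Slc4a11 and Bst1 only had the highest Aqp1 level of the groups, 2235 CPM (905 to 3083 over libraries, found in 92.0%), against 391 CPM in the other members. The calcium channel gene Cacna1d had 1021 CPM (78.3%) against 191, the laminin gene Lama3 563 CPM (66.4%) against 110, the metal transporter gene Slc39a8 307 CPM (38.9%) against 70.9, and the complement regulator gene Susd4 305 CPM (49.6%) against 73.7. Epha7 (1188 CPM, 77.4%) and Sorcs3 (1761 CPM, 78.8%) were at their highest in these nuclei.

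The 127 members with Sptssb and neither Fst nor Corin bore out the label in some of its markers and not in others. Aqp1 was found in 13.4% of them (103 CPM), and the genes that led them were Bsnd, the barttin subunit of chloride channels of the ascending limb (193 CPM against 5.81 in the other members, found in 30.7%), the transcription factor gene Prox1 (427 CPM against 13.9, 36.2%), Psca (134 CPM against 2.90, 26.0%), Ccdc3 (166 CPM against 3.48) and Dnah11 (169 CPM against 5.81, 35.4%). In thin ascending limb-like nuclei Bsnd was found in 64.1% and Psca in 42.2%. Prox1 itself belongs to the rule by which those nuclei were chosen. Cryab (628 CPM, 71.7%) and Proser2 (541 CPM, 67.7%) were at their highest in this group. Epha7 had 773 CPM (71.7%) and Sorcs3 1342 CPM (61.4%), against 283 and 246 CPM in thin ascending limb-like nuclei. Of the other listed markers, Aqp1 and Lypd2 (13.1 CPM) were above their pooled level in the nuclei outside the members. Slc14a2 (101 CPM), Slc9a3 (15.3 CPM), Jag1 (39.4 CPM) and Cdh13 (59.1 CPM) were below it. These nuclei are called here by their rule, Sptssb without Fst or Corin, and stay in all the sums below.

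**Figure D2:**
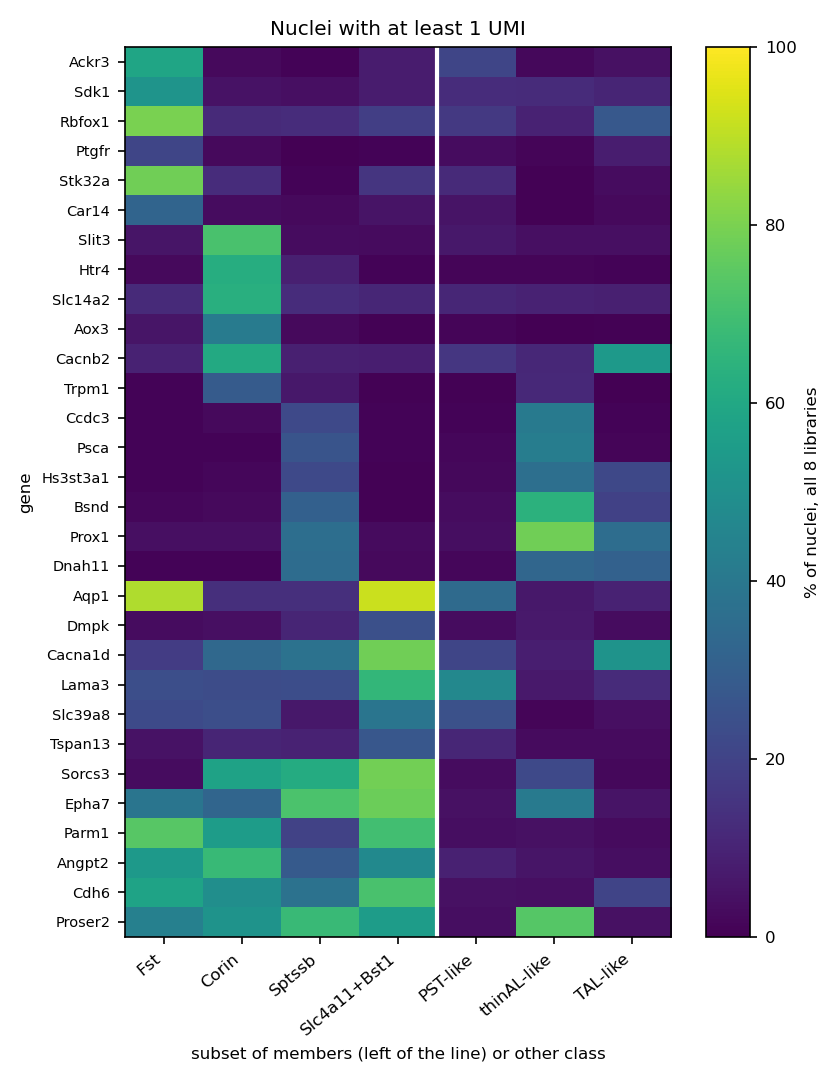
Heat map of the percent of nuclei with at least 1 UMI of 30 genes (rows) in the 4 groups of members and in 3 other classes of nuclei (columns). Aqp1 is found in 87.9% and 92.0% of members with Fst or with Slc4a11 and Bst1 only, and in 13.6% and 13.4% of the other 2 groups, where Slc14a2 or Bsnd and Prox1 appear.

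The make-up of the members varied between libraries, and it was not tested between genotypes. Members with Fst were 21.5% to 29.7% of the members in the 4 Ctrl libraries and 6.78% to 27.5% in the 4 cKOt libraries (means 24.5% and 16.3%), and those with Corin and no Fst 16.2% to 30.4% and 15.3% to 19.6%. The group with Slc4a11 and Bst1 only had a mean share of 31.6% in Ctrl and 45.4% in cKOt, and the group with Sptssb and neither Fst nor Corin 20.9% and 20.7%. These shares stand beside every contrast of genotype below, and their part in those contrasts was not tested, apart from the values without Fst and Corin that are given there.

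Markers of other cell types were found in members. The summed level of 8 proximal convoluted tubule genes (8 of 8 found) was 1192 to 1419 CPM in the Ctrl libraries, 2152 to 2913 CPM in cKOt ZT4 and 1463 to 1814 CPM in cKOt ZT16, against 6493 CPM pooled over the other nuclei. The sum of 7 distal and connecting tubule genes (7 of 7 found) was 493 to 1698 CPM in Ctrl ZT4, 512 to 581 in Ctrl ZT16, 2298 to 4290 in cKOt ZT4 and 508 to 704 in cKOt ZT16, against 5502 CPM pooled over the other nuclei. Of the latter sum, 1061 of 1288 CPM pooled over members came from Slc8a1 alone, which had 3326 and 2090 CPM in cKOt ZT4. Both lists were highest in the cKOt ZT4 libraries. The 8 other thin descending limb markers were lowest there, with 3283 to 3291 CPM, against 3612 to 5138 in Ctrl ZT4, 4605 to 5481 in Ctrl ZT16 and 3911 to 5776 in cKOt ZT16. The 7 proximal straight tubule genes summed to 737 to 2039 CPM (3097 in the other nuclei), the 4 thin ascending limb genes to 145 to 533 (756), the 6 thick ascending limb genes to 288 to 485 (5034), the 8 endothelial genes to 69.6 to 226 with Flt1 at 0 by the rule, and the 6 collecting duct genes to 27.8 to 80.9 with Aqp2 at 0 by the rule. The highest library sum was 417 CPM for the 7 intercalated cell genes and 308 for the 9 stromal genes, both in cKOt ZT16. Pooled over members these lists had 70.2 and 87.2 CPM, and the other nuclei 290 and 148 (at most 360 and 187 per library). The highest library sum was 181 for the 8 immune genes, with Cd79a at 0, and 55.5 for the 5 podocyte genes, both in Ctrl ZT16. Their pooled levels were 44.1 and 25.7 CPM in members and 99.1 and 150 in the other nuclei (at most 135 and 171 per library). In these single libraries the intercalated, stromal and immune sums were thus above every library of the other nuclei. The 4 urothelial genes reached 44.6 in Ctrl ZT4 (15.6 pooled over members, 12.0 in the other nuclei). The 5 adipocyte genes reached 25.3 in cKOt ZT4, with Adipoq at 0 (5.05 pooled over members, 7.34 in the other nuclei).

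The contrasts of time and genotype were tested with edgeR's quasi-likelihood test on the UMIs summed over the members of each library, 4 groups of 2 libraries in 1 model, with a call at a Benjamini-Hochberg adjusted p under 0.05 over all genes of the biotype. The targeted gene comes first. Arntl, which encodes BMAL1, stood at 14.4 and 25.1 CPM in Ctrl ZT4, 170 and 215 in Ctrl ZT16, 328 and 177 in cKOt ZT4, and 312 and 226 in cKOt ZT16. Its level was thus not lower in the cKOt libraries. Counts per gene do not tell which exons a transcript contains, so the level of Arntl checks neither the recombination nor the labels. The study's methods state that the loss of Bmal1 was tested on kidney tissue by PCR, which is not analysed here.

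In Ctrl members, 3 of 7897 mRNAs tested (0.038%) were called between ZT16 and ZT4, all higher at ZT16 and all on the list of 16 clock genes. Npas2, a paralog of Clock that pairs with BMAL1, went from 28.9 and 27.8 CPM at ZT4 to 235 and 329 CPM at ZT16, a log2 fold change of 3.26 (SE 0.35, edgeR adjusted p = 0.00017). Arntl had a log2 fold change of 3.14 (SE 0.43, edgeR adjusted p = 0.00285). For each of the 3 mRNAs called the groups did not overlap, which held for 35.8% of all mRNAs tested, and DESeq2 called 2. Without Ctrl ZT4 replicate 2 there were 11 calls, 3 higher and 8 lower at ZT16. With edgeR no mRNA was called in the members under a stricter limit on other cell types' markers (116 of 1924 tested at an unadjusted p under 0.05), in those with at least 3 markers (113 of 2273) or in those without Fst or Corin (355 of 5567). Over all alternatives that gave a value, the log2 fold change was 2.50 to 3.70 for Npas2 and 2.92 to 5.39 for Arntl.

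Of the 16 clock genes, 13 were tested in this contrast, and beside the 3 called none passed the limit. With the 3 called included, 8 of the 13 had an unadjusted p under 0.05 with edgeR, against 418 of all 7897 mRNAs tested. Of the 13, 7 were positive (median log2 fold change 0.07, against −0.00088 over all mRNAs tested). Nr1d2, which encodes the repressor REV-ERBβ, stood at 202 and 231 CPM at ZT4, against 53.9 and 51.8 CPM at ZT16 (log2 fold change −2.05, SE 0.43, edgeR adjusted p = 0.232). Dbp, a PAR bZIP transcription factor gene, had 33 UMIs over both ZT4 libraries and 2 UMIs over both ZT16 libraries (edgeR adjusted p = 0.0521), and no fold is given against so few counts. Tef, of the same family, had 183 and 192 CPM at ZT4 and 105 and 81.4 at ZT16, with an edgeR adjusted p of 0.75. The levels of these 3 genes did not overlap between times, but they were not called.

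In cKOt members no mRNA of 7188 tested (0.0%) was called between ZT16 and ZT4 with edgeR, where 499 had an unadjusted p under 0.05, and DESeq2 called 1. Npas2 stood at 840 and 564 CPM at ZT4 against 751 and 583 CPM at ZT16, with a log2 fold change of −0.03 (SE 0.24). Arntl had a log2 fold change of 0.16 (SE 0.31). The libraries of the times overlapped for both genes. Of 10 clock genes tested in cKOt, none had an unadjusted p under 0.05.

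The difference of the time contrast between genotypes was itself tested on 8256 mRNAs, and 1 (0.0121%) was called. Npas2 had a difference of −3.32 (log2, SE 0.44, edgeR adjusted p = 0.004). Angpt2 (1.79, SE 0.32), Slc25a21 (−2.34, SE 0.42) and Arntl (−2.99, SE 0.55) came next by p and were not called (edgeR adjusted p = 0.0641 for each). Angpt2 falls under the rule for named genes by its ratio to the other nuclei, but its difference was not called and is given after its values were seen. Npas2 lost its call without cKOt ZT4 replicate 1 and kept it without each other library. Without Ctrl ZT4 replicate 1, 6 mRNAs were called.

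**Figure D3:**
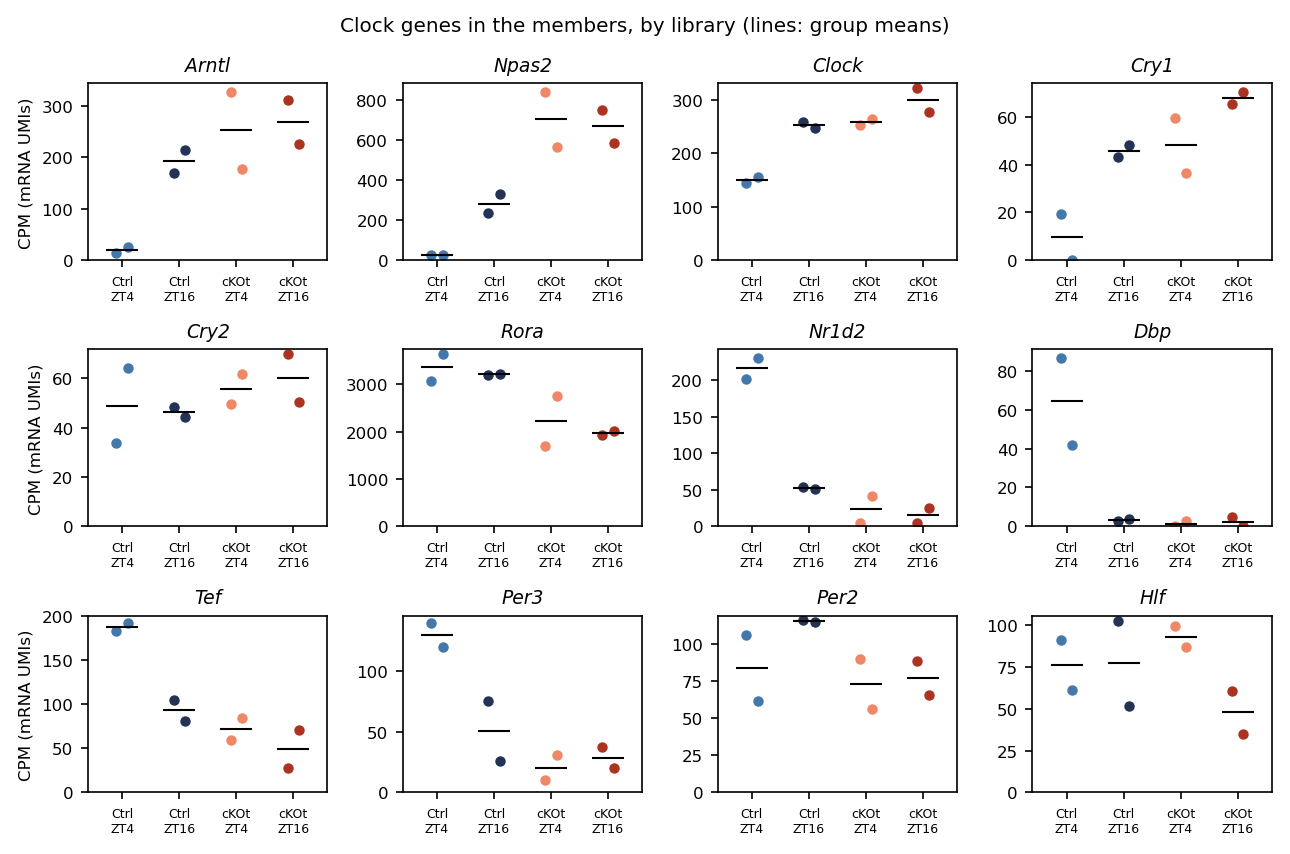
Level in members, in CPM of mRNA UMIs, of 12 clock genes by group, with 1 point per library (2 per group). Npas2 and Arntl are low in both Ctrl ZT4 libraries and high in the other 6, and Nr1d2, Dbp, Tef and Per3 have their highest values in the Ctrl ZT4 libraries.

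At ZT4, 26 of 7500 mRNAs tested (0.347%) were called between cKOt and Ctrl members, 18 higher and 8 lower in cKOt, and 600 had an unadjusted p under 0.05. DESeq2 called 18 (13 higher, 5 lower). Dbp, Per3, Rcan2, Gatm, G6pc, Dcdc2a, Slc25a21 and Slc4a5 were called with edgeR and not with DESeq2. The levels of the groups did not overlap for any of the 26, which held for 37.0% of all mRNAs tested. Without cKOt ZT4 replicate 1 the count fell to 2, Npas2 and Arntl, so that the length of the list rests on that library. Without Ctrl ZT4 replicate 2 there were 22 calls, 9 higher and 13 lower.

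The clock genes come first. Npas2 rose from 28.9 and 27.8 CPM in Ctrl to 840 and 564 CPM in cKOt (log2 fold change 4.57, SE 0.34, edgeR adjusted p = 3.69e-07). Arntl rose by 3.49 (SE 0.43, edgeR adjusted p = 0.000536). In the other direction, Nr1d2 went from 202 and 231 CPM to 4.97 and 42.1 CPM (log2 fold change −2.98, SE 0.49, edgeR adjusted p = 0.00579). Dbp was called lower with 33 UMIs in Ctrl and 1 UMI in cKOt (edgeR adjusted p = 0.0148), too few for a fold. DESeq2 did not call Dbp (DESeq2 adjusted p = 0.433). In all, 3 clock genes rose and 2 fell of 13 tested, 9 had an unadjusted p under 0.05, and the median log2 fold change of the list was 0.12, against 6.1e-05 over all mRNAs tested.

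The other clock genes were not called at ZT4. Clock, the partner of BMAL1, stood at 144 and 156 CPM in Ctrl and 254 and 264 CPM in cKOt (log2 fold change 0.75, SE 0.25, edgeR adjusted p = 0.336). Cry1, a repressor of the BMAL1 complex, had 19.2 and 0 CPM in Ctrl and 59.7 and 36.5 CPM in cKOt (edgeR adjusted p = 0.266). Tef had 183 and 192 CPM in Ctrl and 59.7 and 84.2 CPM in cKOt (edgeR adjusted p = 0.156). Rora, a nuclear receptor gene, had 3083 and 3642 CPM in Ctrl and 1690 and 2758 CPM in cKOt (edgeR adjusted p = 0.353). Per1, Per2, Cry2 and Hlf had unadjusted p-values above 0.05, and Nr1d1, Nfil3 and Rorb did not pass the filter on low counts. Nr1d1, which encodes REV-ERBα, was found with 22 UMIs in Ctrl ZT4, 1 in Ctrl ZT16, 4 in cKOt ZT4 and 0 in cKOt ZT16.

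Of 13 accessory clock genes 7 were tested and 1 was called: Per3, a period gene, fell from 139 and 120 CPM in Ctrl to 9.94 and 30.9 CPM in cKOt (log2 fold change −2.50, SE 0.52, edgeR adjusted p = 0.0407). Per3 lost its call in 10 of 17 alternatives, DESeq2 among them (DESeq2 adjusted p = 0.157). The list had a median log2 fold change of 0.07. Nampt, which encodes the rate-limiting enzyme of NAD salvage, stood at 216 and 203 CPM in Ctrl ZT4, 272 and 296 in Ctrl ZT16, 124 and 101 in cKOt ZT4, and 154 and 101 in cKOt ZT16. It was not called at ZT4 (log2 fold change −0.94, SE 0.29, edgeR adjusted p = 0.277) or at ZT16 (−1.14, SE 0.28, edgeR adjusted p = 0.436).

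Among the 6 other genes that fell at ZT4, Pkhd1 had the highest counts behind it. It encodes fibrocystin, the protein mutated in autosomal recessive polycystic kidney disease, and stood at 5886 and 6686 CPM in Ctrl and 2814 and 2910 CPM in cKOt (log2 fold change −1.16, SE 0.17, edgeR adjusted p = 0.00366). The call was lost in 4 of 18 alternatives: in the members kept by a stricter limit on other cell types' markers, in the 71 members with at least 3 of the markers (−0.16, edgeR adjusted p = 0.986), in members without Fst or Corin, and without cKOt ZT4 replicate 1. At ZT16 Pkhd1 had 5608 and 5082 CPM in Ctrl and 3282 and 3076 CPM in cKOt, and was not called (−0.74, SE 0.17, edgeR adjusted p = 0.316). The genotypes did not overlap at ZT16, which held for 35.7% of all mRNAs tested there.

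Thsd7a, a thrombospondin repeat membrane protein gene, fell from 207 and 192 CPM to 24.9 and 39.3 CPM (log2 fold change −2.57, SE 0.38, edgeR adjusted p = 0.00366). Ntn4, which encodes netrin 4, a secreted protein of basement membranes, fell from 414 and 412 CPM to 59.7 and 140 CPM (−1.97, SE 0.35, edgeR adjusted p = 0.0111). The calcineurin regulator gene Rcan2 fell from 375 and 337 CPM to 109 and 140 CPM (−1.50, SE 0.28, edgeR adjusted p = 0.016). Cacnb4, a calcium channel subunit gene, fell from 351 and 181 CPM to 79.5 and 67.3 CPM (−1.85, SE 0.35, edgeR adjusted p = 0.0167). At ZT16 Thsd7a (127 and 155 against 37.3 and 65.3 CPM), Ntn4 (388 and 311 against 252 and 111 CPM) and Cacnb4 (259 and 215 against 55.9 and 80.4 CPM) also lay among that share and were not called, and Rcan2 overlapped (218 and 155 against 182 and 131 CPM). Pooled over libraries, Cacnb4 had 456 CPM in members with Fst and at most 100 in the other groups. Thsd7a had 265 and at most 95.3. Rcan2 (339) and Ntn4 (568) were highest in members with Corin and no Fst. Pkhd1 had 6183 and 5652 CPM in these 2 groups, and at most 3744 in the others. Per3 had 48.2 to 78.8 CPM over the groups. Members with Fst were 29.7% and 21.6% of Ctrl ZT4 members, and 14.3% and 16.5% in cKOt ZT4. The part of this make-up in the falls was not tested.

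Among the 15 other genes that rose at ZT4, Rhobtb1, an atypical GTPase gene, went from 28.9 and 109 CPM to 502 and 342 CPM (log2 fold change 2.43, SE 0.38, edgeR adjusted p = 0.00484). The stress-responsive gene Ndrg1 went from 135 and 184 CPM to 900 and 477 CPM (2.03, SE 0.32, edgeR adjusted p = 0.00484). Lmtk2, a membrane kinase gene, rose by 1.54 (SE 0.26, edgeR adjusted p = 0.00631), from 207 and 156 CPM to 512 and 542 CPM. Ypel2 rose by 2.01 (SE 0.36, edgeR adjusted p = 0.0111). At ZT16 none of these 4 genes was called, and Rhobtb1 had 194 and 185 CPM in Ctrl and 294 and 191 CPM in cKOt.

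Slc4a4, the sodium bicarbonate cotransporter gene, rose from 173 and 273 CPM to 746 and 615 CPM (log2 fold change 1.54, SE 0.24, edgeR adjusted p = 0.00484). Slc5a12, the lactate transporter gene of the proximal tubule, rose from 168 and 175 CPM to 815 and 457 CPM (1.83, SE 0.30, edgeR adjusted p = 0.00579). Gatm, the first enzyme of creatine synthesis, rose by 1.80 (SE 0.37, edgeR adjusted p = 0.0339), and G6pc, the catalytic subunit of glucose-6-phosphatase, by 1.96 (SE 0.41, edgeR adjusted p = 0.0394). Neither Gatm nor G6pc was called with DESeq2 (DESeq2 adjusted p = 0.155 and 0.334). The 8 proximal convoluted tubule markers had a positive fold change in 8 of 8 (median 0.96, 1 called), and their summed level was 2152 to 2913 CPM in the cKOt ZT4 libraries against 1231 to 1419 CPM in Ctrl ZT4.

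The same contrast was therefore computed on 440 members, a setting chosen after the data were seen. They had under 5 UMIs of Slc5a12, Slc34a1 and Lrp2 together. They also had under 5 UMIs of each endothelial, stromal, immune, podocyte, collecting duct, intercalated, and distal and connecting tubule list. The proximal straight tubule, thin and thick ascending limb, urothelial and adipocyte lists were not limited. Slc5a12 is itself part of that filter, and the filter takes out nuclei rich in proximal tubule transcripts, whose sum was highest in cKOt ZT4. The values of Slc5a12 and of any gene that goes with those transcripts are therefore a description there. It gave 21 calls, 9 higher and 12 lower. Slc5a12 then had a log2 fold change of 0.33 (edgeR adjusted p = 0.934), and Gatm, Slc4a4, Ndrg1 and Rhobtb1 had 0.92, 0.89, 1.27 and 1.76 and were no longer called. Npas2, Arntl, Lmtk2, Ypel2, Pkhd1, Thsd7a, Ntn4, Rcan2, Cacnb4, Nr1d2 and Dbp were called in both. In the members without a UMI of Fst or Corin, also chosen after the data were seen, 3 mRNAs were called, all higher, Npas2 (3.59) and Arntl (3.65) among them.

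Folh1, the glutamate carboxypeptidase gene, was called with 1 UMI in both Ctrl ZT4 libraries together against 62 in cKOt ZT4, and the bicarbonate transporter gene Slc4a5 with 1 UMI against 29, so that no fold is given for either. Nhs (1.52), Auts2 (1.31), Magi2 (1.60), Slc25a21 (1.46) and Dcdc2a (1.40) made up the rest of the called genes that rose, with edgeR adjusted p-values of 0.0159 to 0.0407. Magi2 and Slc25a21 turned negative in smaller sets of members.

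**Figure D4:**
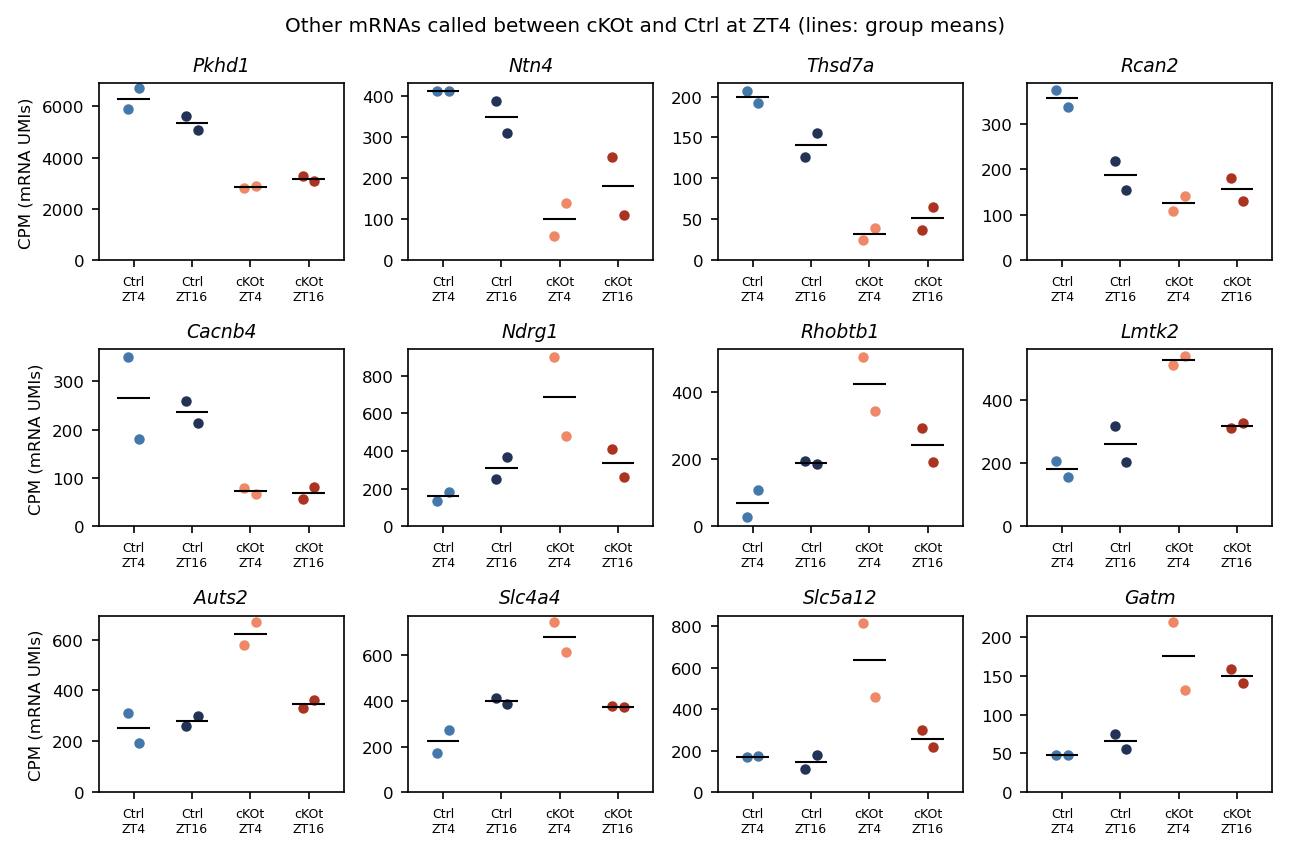
Level in members, in CPM of mRNA UMIs, of 12 mRNAs outside the clock lists that were called between cKOt and Ctrl at ZT4, by group, with 1 point per library. Pkhd1, Thsd7a, Ntn4, Rcan2 and Cacnb4 are lower in both cKOt ZT4 libraries than in both Ctrl ZT4 libraries, and the other 7 genes are higher there.

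At ZT16 no mRNA of 7684 tested (0.0%) was called between cKOt and Ctrl with edgeR, 456 had an unadjusted p under 0.05, and DESeq2 called 0. Npas2 had 235 and 329 CPM in Ctrl and 751 and 583 CPM in cKOt, with a log2 fold change of 1.27 (SE 0.25, edgeR adjusted p = 0.199). Nr1d2 stood at 53.9 and 51.8 CPM in Ctrl and 4.66 and 25.1 CPM in cKOt (−1.82, SE 0.70, edgeR adjusted p = 0.796). Without cKOt ZT16 replicate 1, 7 mRNAs were called. The genotype contrasts at ZT4 and ZT16 were set against each other by the test of the time contrast above, in which Npas2 alone was called.

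The genes called at ZT4 were looked up for clock motifs in the 250 bases before their transcription starts (RefSeq, build GRCm38.p6). The motifs, searched on both strands, were the E-box CACGTG bound by BMAL1 with CLOCK or NPAS2, the D-box TTATGTAA or TTACGTAA of the PAR bZIP factors, and the half-site AGGTCA shared by the ROR and REV-ERB receptors. Of 32851 such windows of all genes, 6.02% held the E-box, 0.931% the D-box and 14.0% the half-site, and of the 27025 genes with at least 1 window, 6.86%, 1.10% and 15.8% did. Of 14 clock genes with a window, 3 held an E-box (Cry1, Per1 and Tef), none a D-box and 4 a half-site (Clock, Nfil3, Nr1d2 and Per1). Of the 8 called genes that fell, 1 held a D-box (Per3) and 2 a half-site (Nr1d2 and Ntn4). Of 14 called genes that rose and had a window, 1 held an E-box (Rhobtb1), 1 a D-box (G6pc) and 4 a half-site (G6pc, Gatm, Nhs and Slc4a4). A match is a description of letters and not a site of binding. The windows of 4 called genes with a match are shown 5′ to 3′ on the strand of the gene, with the motif in capitals: Nr1d2 (chr14:18239107-18239356, minus strand, half-site from base 77 before the start), Per3 (chr4:151044666-151044915, minus strand, D-boxes from bases 205 and 158), Rhobtb1 (chr10:69212407-69212656, plus strand, E-box from base 67, the middle of 3 windows of this gene and the one with a match) and Ntn4 (chr10:93640799-93641048, plus strand, half-site from base 222).
Nr1d2: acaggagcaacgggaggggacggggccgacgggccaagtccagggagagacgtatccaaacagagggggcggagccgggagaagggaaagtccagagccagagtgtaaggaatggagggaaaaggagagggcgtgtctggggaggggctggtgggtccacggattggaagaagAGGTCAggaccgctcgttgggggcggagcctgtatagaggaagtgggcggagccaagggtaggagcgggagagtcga
Per3: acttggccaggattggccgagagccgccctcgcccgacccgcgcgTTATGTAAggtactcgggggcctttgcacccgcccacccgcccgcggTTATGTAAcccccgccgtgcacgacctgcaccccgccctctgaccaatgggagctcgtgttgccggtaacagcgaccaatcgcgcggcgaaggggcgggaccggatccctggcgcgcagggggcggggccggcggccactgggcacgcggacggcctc
Rhobtb1: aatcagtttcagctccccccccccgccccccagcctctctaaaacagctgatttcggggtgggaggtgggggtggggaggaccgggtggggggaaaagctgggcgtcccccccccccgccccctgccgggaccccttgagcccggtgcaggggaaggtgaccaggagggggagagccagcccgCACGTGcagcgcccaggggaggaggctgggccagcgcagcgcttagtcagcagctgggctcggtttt
Ntn4: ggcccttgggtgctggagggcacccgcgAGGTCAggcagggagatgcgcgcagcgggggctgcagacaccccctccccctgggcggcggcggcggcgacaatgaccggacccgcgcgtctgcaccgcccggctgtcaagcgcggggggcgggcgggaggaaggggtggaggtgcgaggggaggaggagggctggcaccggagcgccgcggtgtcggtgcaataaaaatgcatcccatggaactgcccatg

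Among lncRNAs, none of 374 tested (0.0%) was called between times in Ctrl members with edgeR (31 at an unadjusted p under 0.05, 0 with DESeq2). In cKOt 5 of 299 (1.67%) were called between times, 1 higher and 4 lower at ZT16. At ZT4 7 of 329 (2.13%) were called between genotypes, 4 higher and 3 lower in cKOt, and at ZT16 2 of 346 (0.578%), both higher in cKOt. DESeq2 called none of these, and a fit of lncRNAs together with mRNAs called 0, 1 and 0 in the same order. RLE size factors, which change the scaling alone, gave 5, 7 and 3 calls.

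Trmt61b, a locus annotated as lncRNA, was called lower at ZT16 in cKOt: it had 338 and 184 CPM of lncRNA UMIs at ZT4 against 46.2 and 38.4 CPM at ZT16, with 267 and 305 CPM and 318 and 244 CPM in Ctrl at these times (log2 fold change −2.69, SE 0.73, edgeR adjusted p = 0.0169). Gm20400 stood at 1309 and 303 CPM at ZT4 against 162 and 134 CPM at ZT16 in cKOt (−2.52, SE 0.54, edgeR adjusted p = 0.00055), and at 638 and 514 CPM and 106 and 171 CPM in Ctrl, where it was not called (−2.27, SE 0.60, edgeR adjusted p = 0.112). Gm1976 went from 296 and 346 CPM at ZT4 to 69.4 and 76.8 CPM at ZT16 (−2.31, SE 0.64, edgeR adjusted p = 0.0188). C330002G04Rik (−2.63) was also lower at ZT16 in cKOt, and the libraries of C330002G04Rik overlapped between times. Gm47283 rose from 21.1 and 97.4 CPM at ZT4 to 439 and 1229 CPM at ZT16 in cKOt (3.44, SE 0.55, edgeR adjusted p = 2.09e-07), while its Ctrl libraries ranged from 226 to 1271 CPM.

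Between genotypes at ZT4, 4930486I03Rik had 987 and 1254 CPM in Ctrl and 338 and 238 CPM in cKOt (log2 fold change −1.50, SE 0.43, edgeR adjusted p = 0.0295). At ZT16 it was not called (−0.34, SE 0.38, edgeR adjusted p = 0.824). On the CPM scale the genotypes did not overlap for 54.1% of all lncRNAs tested at ZT4 and for 52.3% at ZT16. Gm47283 was lower in cKOt (−2.15, edgeR adjusted p = 0.0208), and Gm32647 was called lower with 21 UMIs in Ctrl and 1 in cKOt. Gm32461 (2.57), Gm33906 (2.19), Gm43305 (1.54) and Gm49980 (1.47) were higher, with edgeR adjusted p-values of 0.00902 to 0.0306. At ZT16 Gm33906 was higher again (30.3 and 24.4 CPM in Ctrl, 116 and 403 CPM in cKOt, edgeR adjusted p = 0.0134), from 3 UMIs in Ctrl, and Gm37202 was called with 1 UMI in Ctrl and 15 in cKOt.

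Members were further compared with 3 other classes of nuclei from the same libraries, each chosen by its own marker UMIs: 3924 proximal straight tubule-like nuclei (the segment before), 329 thin ascending limb-like nuclei (the segment after) and 9502 thick ascending limb-like nuclei. UMIs were summed per class and library, library was a block, genes of any class's rule were left out, and a call needed an adjusted p under 0.05 and an absolute log2 fold change of at least 1 with edgeR. Levels below are means ± SD over 8 libraries. Against proximal straight tubule-like nuclei 3002 of 12649 mRNAs (23.7%) were called, 1249 higher (9.87%) and 1753 lower (13.9%) in members. Against thin ascending limb-like nuclei 915 of 8454 (10.8%) were called, 610 higher (7.22%) and 305 lower (3.61%). This split turned with the choice of members: those with at least 3 markers gave 250 higher and 460 lower, and those under the stricter limit on other cell types' markers 235 and 291. That limit did not cover the ascending limb lists. With equal nuclei per library there were 235 calls, 136 higher and 99 lower. Against thick ascending limb-like nuclei 1990 of 13394 (14.9%) were called, 864 higher (6.45%) and 1126 lower (8.41%). The median log2 fold changes over all mRNAs tested were −0.06, 0.06 and −0.10. The thin ascending limb-like class held 11 to 71 nuclei per library, and its distal and connecting tubule markers reached 34909 CPM in 1 cKOt ZT16 library, against at most 4290 CPM in members. Pooled over that class, 2698 of 3023 CPM of this list came from Slc8a1 alone, with Slc12a3 at 0 by the rule. The count of calls was 929 and 871 without either library of the cKOt ZT16 group.

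In the water and urea transport list, Aqp1 and Slc14a2 were higher in members against all 3 classes. Aqp1 stood at 1023 ± 348 CPM in members, 99.3 ± 14.6 in proximal straight tubule-like nuclei, 67.5 ± 69.4 in thin ascending limb-like and 33.7 ± 10.3 in thick ascending limb-like nuclei, log2 fold changes of 3.09 (SE 0.15), 3.95 (SE 0.24) and 4.74 (SE 0.13). Slc14a2 stood at 1029 ± 496 CPM in members and had log2 fold changes of 3.89 (SE 0.28), 2.90 (SE 0.40) and 3.91 (SE 0.23). In the same order, the list had 2 higher and 4 lower of 8 tested, 2 and 0 of 2, and 2 and 0 of 10. The lower ones were the aquaporin genes Aqp3, Aqp6, Aqp7 and Aqp11, each at under 10 CPM in members.

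Genes of organic osmolytes and the tonicity response, by which medullary cells accumulate small solutes in hypertonic surroundings, were called in both directions. Of 16, 8 were higher and 2 lower in members than in the proximal class (median log2 fold change 0.69), and 7 higher and 2 lower than in the thick limb class (median 0.81). Akr1b3, the aldose reductase that makes sorbitol, had 570 ± 188 CPM in members and was higher than in both classes (60.8 ± 18.6 and 48.5 ± 20.5 CPM), but was lower than in thin ascending limb-like nuclei, where it had 1463 ± 544 CPM (−1.34, SE 0.15). Cryab (397 ± 66.6 CPM) had 3.19 and 3.36 against the former 2 classes, and against thin ascending limb-like nuclei −0.12 (SE 0.14, edgeR adjusted p = 0.675). Nfat5, the transcription factor of the tonicity response, was higher against proximal straight tubule-like nuclei (1707 ± 300 against 408 ± 53.8 CPM, 1.83). The salt-responsive kinase gene Sgk1 was higher against both (1.14 and 2.03) and lower against thin ascending limb-like nuclei (−1.49). The taurine transporter gene Slc6a6 had 646 ± 260 CPM in members and was higher than in thin ascending limb-like (69.5 ± 52.8 CPM, 3.25) and thick ascending limb-like nuclei (101 ± 34.0 CPM, 2.48). Slc5a3, which imports inositol, was higher than in the proximal class (1.74) and lower than in the thick limb class (−2.41), and Sord, which uses up sorbitol, was lower than in the proximal class (−2.19). Against thin ascending limb-like nuclei the list had 1 higher and 2 lower of 13 (median −0.08).

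Sodium, potassium and chloride transport genes were lower in members than in thick ascending limb-like nuclei in 10 of 28 and higher in 1 (median −0.87). The potassium channel gene Kcnj1 (ROMK) had 11.5 ± 6.09 CPM in members against 451 ± 34.6 (log2 fold change −5.51, SE 0.17). The sole gene higher was Slc12a2, the basolateral sodium-potassium-chloride cotransporter (151 ± 45.2 against 44.0 ± 10.5 CPM, 1.62, SE 0.14). Against the proximal class 4 were higher and 10 lower of 27, and against thin ascending limb-like nuclei 4 higher and 1 lower of 21. The lower one was Bsnd (45.8 ± 24.0 against 395 ± 81.6 CPM, −3.11, SE 0.20), and Slc9a3 was among the higher (225 ± 75.2 against 13.0 ± 10.1 CPM, 3.90, SE 0.30).

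Among acid-base genes, Car14, a membrane carbonic anhydrase, was higher in members against each class (1.69, 3.81 and 2.35), with 42.7 ± 21.9 CPM in members. The list had 4 higher and 7 lower of 18 against the proximal class, 2 and 0 of 9 against the thin ascending limb-like class, and 1 and 8 of 19 against the thick limb class. Claudins set the permeability of tight junctions. Cldn4 was higher against the proximal (3.58) and thick limb classes (4.32), at 49.6 ± 20.3 CPM in members, and Cldn8 was higher against all 3 (3.13, 2.07 and 1.55). Cldn19 was higher against the proximal class (2.96) and lower against the thin ascending limb-like class (−2.02). Cldn16, the magnesium pore of the thick limb, was lower against the thick limb class (4.90 ± 4.24 against 59.8 ± 13.6 CPM, −3.81). The claudins counted 4 higher and 2 lower of 11, 2 and 1 of 6, and 3 and 1 of 13 in the 3 comparisons.

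Nephron transcription factors were called in both directions. Against proximal straight tubule-like nuclei, 11 were higher and 8 lower of 38 tested: Pax2 (2221 ± 431 against 250 ± 44.4 CPM, 2.92), Grhl2 (332 ± 78.2 against 24.5 ± 7.69, 3.55), Ehf (3.66) and Sim1 (2.54) were higher, and the proximal regulators Hnf4a (59.1 ± 14.1 against 501 ± 67.0, −3.30) and Hnf4g (−3.25) were lower. Against thin ascending limb-like nuclei 4 were higher and 3 lower of 32, with Hnf4a (1.33) and Hnf4g (1.93) higher and Tfap2b (88.8 ± 45.7 against 772 ± 180, −3.14), Esrrb (−2.51) and Sim2 (−1.47) lower. The rule of that class allowed at most 1 UMI of the proximal gene Lrp2, and the rule of members had no such limit. The 8 proximal convoluted tubule genes pooled to 799 CPM there and 1629 CPM in members. The values of Hnf4a and Hnf4g are therefore a description in this comparison. Against thick ascending limb-like nuclei 6 were higher and 8 lower of 39, with Pax8 (1442 ± 165 against 318 ± 32.2 CPM, 2.00), Pax2 (1.84), Ehf (1.72) and Irx5 (2.50) higher and Esrrb (−3.85), Tfap2b (−2.42) and Esrrg (−1.96) lower. Hox genes, which record the position of a cell's ancestors along the body axis, were higher than in the proximal class in 8 of 28 and lower in none (median 0.64), with Hoxb6 (510 ± 64.9 against 109 ± 12.9 CPM, 2.01), Hoxb5 (2.22) and Hoxb9 (2.33) among them, and none of 19 was called against the thin ascending limb-like class. Against the thick limb class Hoxa10 was higher (2.03) and 4 Hoxd genes were lower of 28 tested, Hoxd8 (−1.88) first.

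In the activin, BMP and Notch list, Jag1 (188 ± 110 CPM in members) was higher against all 3 classes (2.93, 2.72 and 1.43), as was the follistatin-related gene Fstl1 (101 ± 49.5 CPM: 2.53, 2.11 and 1.30). The BMP target genes Id1 (46.4 ± 22.8 against 4.55 ± 1.56 CPM, 3.14) and Id3 (69.1 ± 34.3 against 13.0 ± 3.22 CPM) were higher and the ligand gene Bmp7 lower (−3.19) than in thick ascending limb-like nuclei. The list had 8 higher and 5 lower of 34, 5 and 2 of 25, and 9 and 3 of 35. Natriuretic peptide and NAD genes counted 2 and 0 of 9, 1 and 0 of 6, and 3 and 1 of 9. The receptor genes Npr1 (1.35 and 1.25) and Npr3 (1.33 and 1.11) were higher than in the proximal and thick limb classes, from 18.6 ± 12.8 and 18.6 ± 16.3 CPM. Sphingolipid genes counted 2 and 4 of 19, 1 and 0 of 15, and 2 and 1 of 20, with the ceramide synthase gene Cers4 higher than in the proximal class (60.8 ± 17.5 against 10.2 ± 2.65 CPM, 2.39).

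Tubular injury and repair genes were higher in members in 7 of 16 against the proximal class (1 lower, median 1.15) and in 5 of 15 against the thick limb class (1 lower, median 0.88), and 2 were higher and 1 lower of 11 against the thin ascending limb-like class. Among those that were higher were Pax2, also a gene of tubule identity, the annexin gene Anxa2 (3.01), Prom1 (2.73) and Spp1, osteopontin (456 ± 360 against 71.0 ± 40.8 CPM, 2.41), in the first comparison, and Dcdc2a (1.67), Anxa3 (2.51) and Krt18 (2.75) in the second. Glucocorticoid and mineralocorticoid targets were lower in 6 of 20 and higher in 2 against the proximal class, Fkbp5 (47.3 ± 25.7 against 212 ± 142 CPM, −2.34) among them, lower in 5 and higher in 2 of 20 against the thick limb class, and 1 each way of 13 against the thin ascending limb-like class. Immediate early genes counted 3 higher and 2 lower of 16, 0 and 0 of 10, and 5 and 1 of 16, and heat shock genes 3 and 0 of 17, 1 and 1 of 16, and 5 and 1 of 17. The clock genes counted 1 higher and 4 lower of 16, 2 and 0 of 12, and 1 and 0 of 16. Rora was the higher one against the proximal (2695 ± 719 against 951 ± 241 CPM, 1.27) and thick limb classes (1.22).

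**Figure D5:**
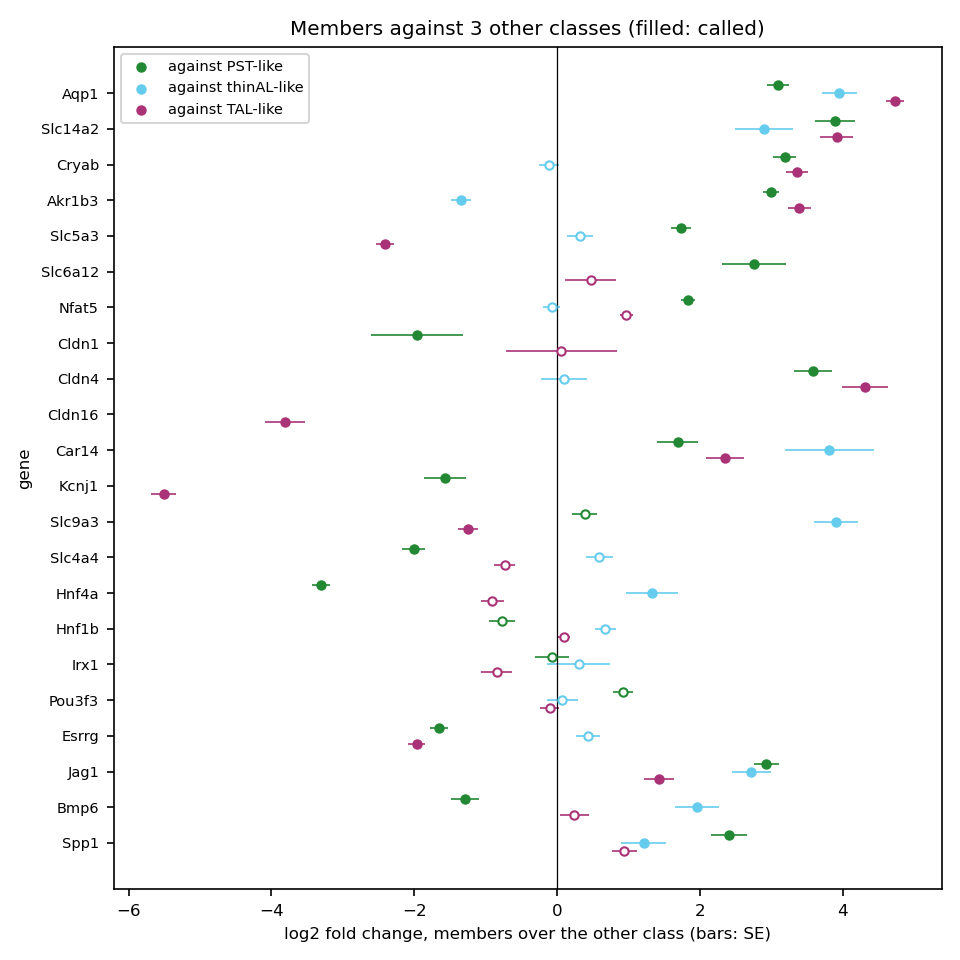
Log2 fold change (± SE) of members against proximal straight tubule-like, thin ascending limb-like and thick ascending limb-like nuclei for 22 genes, with filled points for calls and no point where a gene was not tested in that comparison. Aqp1, Slc14a2, Jag1 and Car14 lie above 0 in all 3 comparisons, and Kcnj1 lies at −5.51 against thick ascending limb-like nuclei.

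The contrasts of time and genotype were last compared between members and the 2 large classes, a test added after the data were seen, on 8249 mRNAs with class by group terms. Against thick ascending limb-like nuclei the difference was called for 0, 1, 0 and 1 mRNAs in the order time in Ctrl, time in cKOt, genotype at ZT4 and genotype at ZT16 (edgeR, with 444, 596, 521 and 437 at an unadjusted p under 0.05). Against proximal straight tubule-like nuclei it was called for 0, 0, 0 and 1 (487, 507, 585 and 528). DESeq2 was not run on these differences. A difference from either class was thus not shown for the genes called in members.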

How the data were processed

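Single nuclei of mouse kidney were sequenced in 8 libraries, and the deposited matrices hold UMI counts per gene and nucleus, made by the authors with Cell Ranger 7.1.0 after bcl2fastq 2.20 and without normalization. The submitters' processing notes name GRCm39 and the study's methods the mm10 reference of Cell Ranger. The sources used here do not say whether counting used strand, so overlapping and antisense genes cannot be told apart. Biotypes came from GENCODE (31674 of 32285 genes matched by identifier, 40 by symbol, 571 not matched).

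UMIs of members were summed per library and tested with edgeR 4.0.16 (R 4.3.3, TMM, quasi-likelihood), in 1 model of 4 groups for each biotype. Genes needed at least 5 counts in both libraries of at least 1 group compared. Classes were compared with library as a block, with at least 5 counts in at least 4 of 16 sums. Proximal straight tubule-like nuclei had at least 2 of Slc7a13, Cyp7b1, Slc22a19 and Aadat with Slc5a12 at 0. Thin ascending limb-like nuclei had at least 2 of 4 markers, Cldn10 and Prox1 among them. They also had Slc12a1, Umod, Slc12a3 and Atp6v0d2 at 0 and Lrp2 at most 1. Thick ascending limb-like nuclei had at least 3 UMIs of Slc12a1 and 1 of Umod. CPM are UMIs per 1000000 mRNA or lncRNA UMIs, without TMM. DESeq2 1.42.0, RLE scaling, other filters, stricter and looser members, equal numbers of nuclei, a replicate block and the removal of each library were alternatives. The edgeR steps were tested on simulated data. Each library was 1 mouse, so p-values of the contrasts of time and genotype measure the spread between libraries. In the class comparisons, with library as a block, they measure how far the difference within a library varied between libraries.

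Named were the clock genes, up to 5 called genes of smallest p per contrast, biotype and direction whose libraries did not overlap, called differences of contrasts, the 15 mRNAs and 8 lncRNAs of highest ratio, and 2 to 4 genes per list and direction. Other genes named were chosen after their values were seen. The members and lists were chosen with earlier results of these data known. Some genes are not reported here.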

Additional observations from a re-analysis of the deposited data

Results flagged for a closer look

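The change of Npas2 from ZT4 to ZT16 differed between the genotypes by −3.32 on the log2 scale in the test of that difference with edgeR (SE 0.44, adjusted p = 0.004), and the difference kept its call in 14 of 18 alternatives. Its level was low in both Ctrl ZT4 libraries and above 200 CPM in the other 6.

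The test of differences between members and other classes, added after the data were seen, called 3 genes, which were named for that call alone. Slc8a1, a sodium-calcium exchanger gene of the distal nephron, differed in its time contrast in cKOt between members and thick ascending limb-like nuclei by −3.63 (SE 0.46, edgeR adjusted p = 0.00326). It had 3326 and 2090 CPM in cKOt ZT4 members and 415 and 528 CPM in cKOt ZT16 members. Slc8a1 is itself 1 of the 7 distal and connecting tubule markers and gave most of their sum in members (1061 of 1288 CPM), so that this sum is no separate measure of other cells beside it. Slc12a3, Trpm6 and Calb1 of the same list also had their highest library level in cKOt ZT4 replicate 1. They reached 746, 149 and 59.7 CPM there, against medians of 68.8, 49.9 and 19.4 CPM over libraries. Pvalb, Trpv5 and Scnn1g had at most 16.8 CPM in any library. Whether these transcripts came from other cells was not tested.

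Lsamp differed in its genotype contrast at ZT16 between members and thick ascending limb-like nuclei by 5.23 (SE 0.76, edgeR adjusted p = 0.0212). It stood at 503 CPM in 1 cKOt ZT16 library and at most 28.9 CPM in the other 7, so that the difference rests on that library. Nckap5 differed in its genotype contrast at ZT16 between members and proximal straight tubule-like nuclei by −2.54 (SE 0.38, edgeR adjusted p = 0.0363), with 127 to 302 CPM in the members of the 4 ZT16 libraries.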

How the results depend on the processing

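The counts of called genes depended on the members and on the filter. In the order time in Ctrl, time in cKOt, genotype at ZT4, genotype at ZT16 and the difference of the time contrasts, mRNAs called numbered 32 (17 higher, 15 lower), 36, 100 (51 higher, 49 lower), 34 and 21 with no filter on low counts. Strict members (95 nuclei) gave 0 for time in Ctrl, 6 for genotype at ZT4 and 0 for the difference, and at least 3 markers (71 nuclei) gave 0, 3, 1 and 0 in all but time in cKOt, which did not move. Strict members had under 2 UMIs of Slc5a12, Slc34a1 and Lrp2 together. They also had under 2 UMIs of each endothelial, stromal, immune, podocyte, collecting duct, intercalated, and distal and connecting tubule list. The proximal straight tubule, thin and thick ascending limb, urothelial and adipocyte lists were not limited. Equal nuclei per library gave 3 for time in cKOt and 13 (7 higher, 6 lower) for genotype at ZT4, and DESeq2 1 for time in cKOt. Members without Fst or Corin gave 0 for time in Ctrl, 3 for genotype at ZT4 and 0 for the difference, and members with under 5 UMIs of other types 2 for genotype at ZT16. The last 2 settings, the removal of libraries from the class comparisons, the share with at least 1 marker and the differences between classes were chosen after seeing the data.

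Leaving out 1 library gave 2 to 11, 0 to 5, 2 to 34, 0 to 7 and 0 to 6 mRNA calls in the same order, and 0 to 1, 1 to 5, 0 to 7 and 0 to 3 lncRNA calls. The 11 (3 higher, 8 lower) came without Ctrl ZT4 replicate 2, the 5 without either Ctrl ZT4 library, the 2 without cKOt ZT4 replicate 1, the 34 without either cKOt ZT16 library and the 7 without cKOt ZT16 replicate 1. Class comparisons gave 2850 to 3011 (proximal), 810 to 929 (thin ascending) and 1877 to 1995 (thick ascending). Strict members gave 526 for the thin ascending class. Equal nuclei gave 235 for it, from 1 random draw of 11 nuclei per library and class (other draws would give other counts), and 1261 for the thick. Strict members also moved the split of higher and lower calls, to 677 and 2299, 235 and 291, and 464 and 1572 in the 3 comparisons.

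For lncRNAs, in the order time in Ctrl, time in cKOt, genotype at ZT4 and genotype at ZT16, no filter gave 2, 3, 0 and 1 calls. DESeq2 and equal nuclei gave 0 in each of the last 3, the joint fit with mRNAs 0, 1 and 0, strict members 0, 1 and 0, and members without Fst or Corin 1, 0 and 0. At least 3 markers gave 0 and 0 in the last 2, and no value for time in cKOt. Members with under 5 UMIs of other types gave 1 for time in Ctrl. For these results the cause was not tested.

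Replicate numbers are shared by the groups, and the correlations of same-numbered libraries' deviations were −0.093 to 0.114 over 5230 genes. The correlation was 0.114 between the ZT4 groups of the genotypes and 0.0968 between their ZT16 groups. Between groups of different times it was −0.093 to 0.0297. With 1 deviation per group, these values cannot tell whether same-numbered libraries shared more than a number. With the replicate block the mRNA calls were 3, 0, 23, 0 and 1, and the lncRNA calls 0, 4, 3 and 0.

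After thinning, in 1 random draw, the share of members differed between genotypes by −0.145 points, now past the limit (exact permutation p = 0.0286). Between times it differed by 0.0573 points in the other direction. Magi2 turned to −0.60 with at least 3 markers and Slc25a21 to −0.58 in strict members. Arntl and Npas2 kept their call at ZT4 in all 17 and 18 alternatives that gave a value.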
